A study of Mus musculus with 6 samples.

Results

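The transcripts of the kinesin motor family were followed in cultured primary myoblasts, the dividing progenitors of muscle, of WT mice and of mice labelled eIF5A-KO. The family was taken by name: of 54532 genes in the count table, the 39 protein-coding genes with a symbol made of Kif and a number were its members. It was selected on the comparison reported here, because earlier results of these libraries were known when it was proposed, so that the differences between genotypes are given as a description and not as a test of the family. Of the 39 members, 37 had at least 1 count in any library and 33 passed the expression filter and entered the fit. By their textbook roles, 12 were grouped as mitotic kinesins, 13 as transport kinesins and 13 as other kinesins. Kif2a, which acts on interphase and spindle pole microtubules, was placed among the other kinesins, apart from Kif2b and Kif2c in the mitotic group. The lists were made with earlier results known, and Kif2a was not lower (log2 fold change 0.15). Counts over the mitotic group depend on this placement. The remaining member, Kif1bp, encodes a protein that binds kinesins and is not a motor. The symbol rule leaves out Cenpe, Stard9, Kifc1, Kifc2, Kifc3 and Kifc5b, which are kinesin genes with other names.

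Kinesins are ATP-driven motors that walk along microtubules or take their ends apart. Transport kinesins carry vesicles, organelles and ciliary cargo through the cell at any stage, whereas mitotic kinesins build the spindle, move chromosomes and complete the division of the cell. The mitotic group is made mainly in the late cell cycle, and its transcripts are abundant in dividing progenitors such as cultured myoblasts.

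RNA-seq was done on 3 WT libraries and 3 libraries labelled eIF5A-KO, of cells from hind-limb muscle of 3-week-old mice, cultured with FGF and collected after 2 days. The KO mice were tamoxifen-induced Pax7-CreERT2 mice with both eIF5A alleles floxed, in which Cre acts in Pax7-expressing cells alone. The study describes the WT controls in different places as Pax7-CreERT2 mice, as floxed mice without Cre and as littermates, so that whether the WT cells carried Cre is not settled, and no cell sort is described for these cultures. Whether replicates came from separate animals is not stated, so that p-values measure the spread between these libraries, which may be technical.

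Total counts were 16281216 to 17734551 per library. The Eif5a transcript did not separate the genotypes, with 986 to 1603 CPM in WT libraries and 1059 to 1459 CPM in those labelled eIF5A-KO (log2 fold change 0.02). CPM, the count scaled to library size with TMM factors, compares a gene between libraries. Myoblast markers were present in every library, with summed levels of 658 to 1637 CPM in WT and 669 to 1172 CPM in KO libraries and none of the 9 at 0. Markers of other cells were present as well. The 9 fibroblast markers summed to 2983 to 3648 CPM in WT and 2923 to 3738 CPM in KO libraries, the 7 endothelial markers to 1033 to 2289 and 1910 to 2874 CPM, the 8 mural cell markers to 359 to 600 and 690 to 749 CPM, and the 7 macrophage markers to 52.5 to 123 and 54.0 to 150 CPM, with none of them at 0. In KO libraries 8 of the 9 myoblast markers were lower (median log2 fold change -0.36), 0 of them without overlap, against 6.83% of all tested genes. All 8 mural cell markers were higher (median 0.44) and 3 did not overlap, against 5.68% of all tested genes, and 1 passed in edgeR with an adjusted p of 0.0486, against 0.0204% of all tested genes. In edgeR with DESeq2 size factors or library size alone, no gene was called higher, so that this marker did not pass there. All 7 endothelial markers were higher as well (median 0.48, 1 without overlap), as were 5 of 7 macrophage markers (median 0.35, 0 without overlap), while 6 of 9 fibroblast markers were lower (median -0.14) and 2 of the other 3 were higher without overlap. Their part in the kinesin differences was not tested. WT replicate 1 stood apart with 5.75% of counts on mitochondrial transcripts, against 2.11% to 3.50% in the other libraries.

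Levels of different kinesins were compared per length, on the FPKM scale (fragments per kilobase, comparable between genes and, by the scaling in the file, between libraries). In WT libraries the order was led by a pair of transport motors. Kif1c, a fast vesicle carrier, had 39.7 ± 2.61 FPKM (SD, n = 3), and Kif5b, the ubiquitous heavy chain of conventional kinesin, had 21.8 ± 2.40 FPKM. The WT libraries of these genes did not overlap with each other or with those of any other kinesin. Mitotic motors came next, with Kif20a at 11.0 ± 3.13, Kif22 at 9.43 ± 0.84 and Kif11 at 9.19 ± 0.63 FPKM. The libraries of these neighbours overlapped, and those of Kif20a also overlapped with Kif2a, Kif2c, Kif3b and Kif3a, which had 8.40, 7.99, 7.98 and 7.70 FPKM. The mean of Kif11 in KO libraries was 4.04 ± 0.69 FPKM. Kif2b and Kif12 had no count in any library, which at this depth limits each to under 3 counts per library, and Kif6, Kif26b, Kif27 and Kif28 had at most 0.53 CPM in any library.

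**Figure D1:**
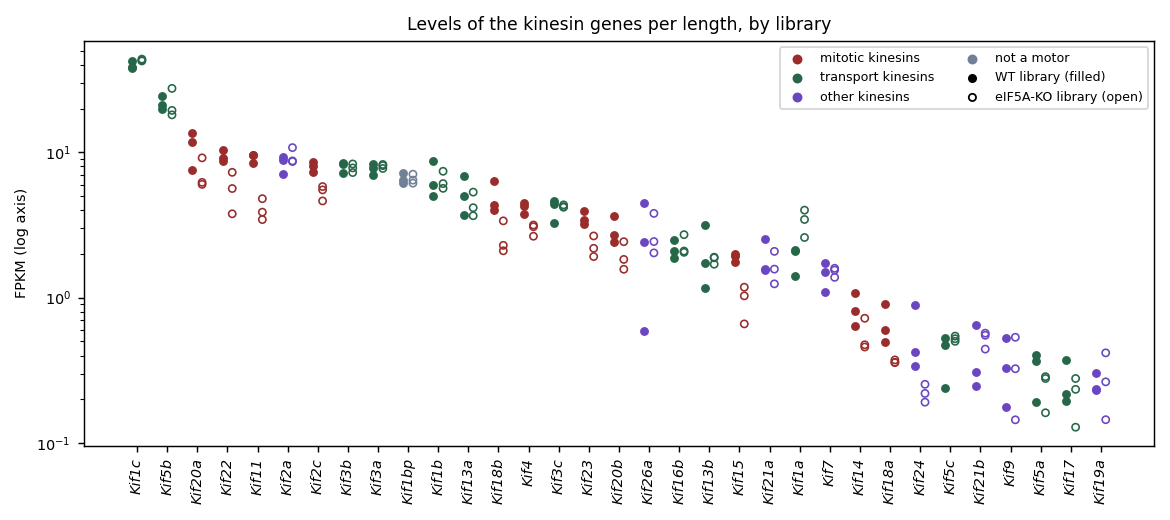
FPKM of each kinesin gene (log axis) in the 3 WT libraries (filled points) and the 3 eIF5A-KO libraries (open points), for members with a WT mean above 0.2 FPKM, in the order of that mean. Kif1c and Kif5b lead at 39.7 and 21.8 FPKM in WT, and the red points of the mitotic kinesins lie lower in KO than in WT libraries except in Kif20a and Kif14, where KO replicate 2 lies above the lowest WT library.

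In the libraries labelled eIF5A-KO, all 11 mitotic kinesins that passed the filter were lower, with a median log2 fold change of -0.66 and a range of -1.19 to -0.50, while the 13 transport kinesins were split into 7 lower and 6 higher around a median of -0.018. Over all 14679 tested genes, 51.7% were lower and the median was -0.011. With each library left out in turn, 3 (without WT replicate 2) to 8 of the transport kinesins were lower. The CPM of 9 of the 11 mitotic kinesins did not overlap between genotypes, against 6.83% of all tested genes not overlapping in that direction. Of the transport kinesins, 0 were lower without overlap and 1, Kif1a, was higher without overlap, against 5.68% of all genes. No kinesin passed an adjusted p of 0.05 in edgeR's quasi-likelihood test, which called 0.0204% of genes. An unadjusted p under 0.05 was reached in the lower direction by 10 mitotic kinesins and 1 other kinesin, Kif24 (4.02% of all genes). In the higher direction it was reached by 1 transport kinesin, Kif1a (2.74% of all genes). DESeq2 called 2 kinesins, Kif11 and Kif15, and 0.627% of all genes. EdgeR without the expression filter called 3 mitotic kinesins, Kif1a and Kif24, and 0.924% of all genes. The family was chosen on this contrast, so nothing is read from these counts beyond the values themselves. In bulk RNA, fewer dividing cells and less kinesin RNA per dividing cell cannot be told apart.

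**Figure D2:**
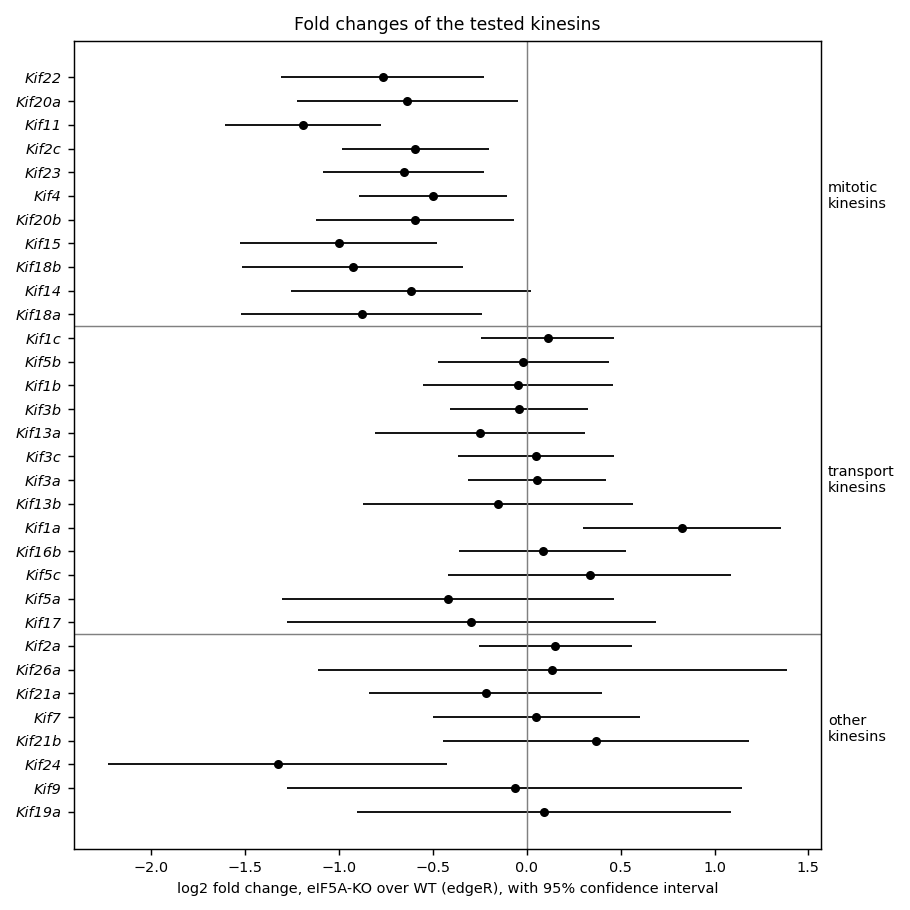
Log2 fold change of libraries labelled eIF5A-KO over WT from edgeR (point) with its 95% confidence interval (line) for the 32 tested kinesin motors, grouped by role. All 11 mitotic kinesins lie below 0, from -1.19 to -0.50, and the transport kinesins lie between -0.42 and 0.83.

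The motors that build the bipolar spindle were lower without overlap. Kif11 (ENSMUSG00000012443, chr19:37376403-37421859, plus strand of mm10, up to 22 exons), also called Eg5, slides antiparallel microtubules and pushes the spindle poles apart. It had 46.6, 46.7 and 41.1 CPM in WT replicates 1 to 3 and 16.8, 23.3 and 18.8 CPM in KO replicates 1 to 3. The KO libraries were all well below the lowest WT library, with a log2 fold change of -1.19 (SE 0.19, 95% confidence interval -1.61 to -0.78) and an edgeR adjusted p of 0.135. Its counts were 696 to 881 in WT and 274 to 393 in KO libraries. Kif15 (chr9:122951046-123018733, plus strand), which can hold the poles apart alongside Kif11, had 19.8, 21.6 and 22.3 CPM in WT and 7.34, 13.1 and 11.4 CPM in KO libraries. The groups did not overlap and the log2 fold change was -1.0 (SE 0.23).

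The mitotic kinesins that act on microtubule ends were lower as well. Kif18a, which damps the oscillation of chromosomes at the metaphase plate, had 8.98, 5.99 and 4.90 CPM in WT and 3.55, 3.55 and 3.68 CPM in KO libraries (log2 fold change -0.88, SE 0.29). The KO libraries were nearly equal and all below the lowest WT library. Kif18b, which shortens astral microtubules, had 14.5, 23.0 and 15.6 CPM in WT and 8.26, 12.1 and 7.54 CPM in KO libraries (log2 fold change -0.93, SE 0.26). Kif2c, the depolymerase that corrects faulty attachments at centromeres, had 38.1, 35.3 and 32.4 CPM in WT and 24.3, 25.5 and 20.3 CPM in KO libraries (log2 fold change -0.59, SE 0.17). Neither gene overlapped between genotypes.

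Both motors that sit on chromosome arms were lower without overlap. Kif22, which pushes chromosomes away from the poles, had 51.6, 45.3 and 43.4 CPM in WT and 27.9, 35.9 and 18.6 CPM in KO libraries (log2 fold change -0.77, SE 0.24). Kif4, which also shapes the central spindle, had 21.1, 23.7 and 25.0 CPM in WT and 17.1, 14.7 and 17.5 CPM in KO libraries. Its log2 fold change was -0.50 (SE 0.18).

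The remaining mitotic members were motors of cytokinesis, of which Kif20a, Kif20b and Kif14 had groups that overlapped or nearly met. Kif23, the motor of the centralspindlin complex, had 26.0, 27.3 and 31.5 CPM in WT and 15.3, 21.1 and 17.3 CPM in KO libraries (log2 fold change -0.66, SE 0.19), without overlap. Kif20a, which brings the Aurora B complex to the central spindle, had 52.7, 45.4 and 28.9 CPM in WT and 23.1, 35.0 and 23.7 CPM in KO libraries (log2 fold change -0.64, SE 0.26). WT replicate 3 lay below KO replicate 2, so that its groups overlapped. Kif20b had 25.6, 19.0 and 17.1 CPM in WT and 11.0, 17.0 and 12.8 CPM in KO libraries (log2 fold change -0.59, SE 0.23), and its groups were apart by under 0.1 CPM. Kif14, which recruits citron kinase to the midbody, had 6.72, 11.2 and 8.50 CPM in WT and 4.96, 7.52 and 4.76 CPM in KO libraries, with overlap (log2 fold change -0.62, SE 0.28). No single library carried the pattern in the mitotic group. The highest value was that of WT replicate 1 in 5 genes, WT replicate 2 in 3 and WT replicate 3 in 3, and the lowest was that of KO replicate 1 in 6, KO replicate 2 in 1 and KO replicate 3 in 4.

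**Figure D3:**
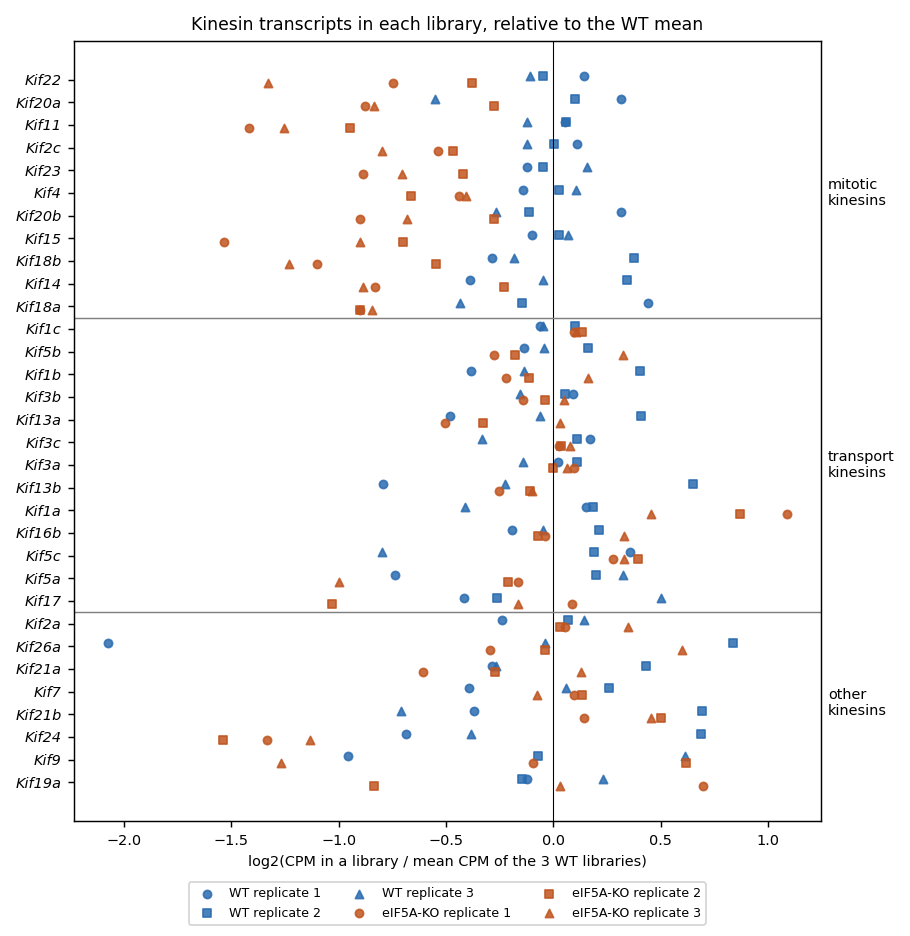
Log2 of the CPM of each tested kinesin motor in a library over the mean of the 3 WT libraries, with WT libraries in blue and eIF5A-KO libraries in orange and a marker shape for each replicate. The orange points of the mitotic kinesins lie to the left, overlapping the blue in Kif20a and Kif14, while in the transport kinesins other than Kif1a the colours are mixed.

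The most abundant transport kinesins had like levels in both genotypes. Kif1c had 280, 314 and 283 CPM in WT and 313, 320 and 314 CPM in KO libraries, with a log2 fold change of 0.11 (95% confidence interval -0.24 to 0.47). Kif5b had 149, 183 and 158 CPM in WT and 135, 145 and 205 CPM in KO libraries (-0.018, interval -0.47 to 0.44). Kif1b, a carrier of mitochondria and synaptic vesicle precursors, had 89.8, 154 and 107 CPM in WT and 100, 108 and 131 CPM in KO libraries (-0.048, interval -0.55 to 0.46). The groups of each gene overlapped, and a difference within these intervals was not detectable with 3 libraries per genotype.

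The motor subunits that pair in intraflagellar transport and vesicle carriage overlapped between genotypes as well. Kif3a had 28.4, 30.1 and 25.3 CPM in WT and 29.9, 27.9 and 29.2 CPM in KO libraries (log2 fold change 0.053, interval -0.31 to 0.42). Kif3b had 48.4, 47.2 and 40.9 CPM in WT and 41.3, 44.3 and 47.1 CPM in KO libraries (-0.040, interval -0.41 to 0.33). Kif3c had 34.6, 33.1 and 24.4 CPM in WT and 31.3, 31.5 and 32.4 CPM in KO libraries (0.047, interval -0.37 to 0.46). The direction of each turned with some libraries left out.

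In the endosomal carriers, the SD within WT was larger than the difference between the genotype means. Kif13a, which moves recycling endosomes, had 30.4, 56.3 and 40.6 CPM in WT and 29.9, 33.9 and 43.3 CPM in KO libraries (log2 fold change -0.25, SE 0.25). Kif13b had 15.3, 41.7 and 22.7 CPM in WT and 22.3, 24.6 and 24.8 CPM in KO libraries (-0.15, SE 0.32), and Kif16b, a motor of early endosomes, had 17.2, 22.8 and 19.0 CPM in WT and 19.2, 18.7 and 24.7 CPM in KO libraries (0.084, SE 0.20). WT replicate 2 was the highest WT library for each of these genes and for 8 of the 13 transport kinesins. Without WT replicate 2 the fold changes of Kif13a and Kif13b turned to 0.0077 and 0.33. That of Kif16b turned to -0.056 without eIF5A-KO replicate 3. Kif5a, Kif5c and Kif17, mainly neuronal motors, were at 0.59 to 3.91 CPM, with log2 fold changes of -0.42, 0.34 and -0.30 and overlapping groups.

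Of the 13 transport kinesins, 1, Kif1a, was higher without overlap, a share near the 5.68% of all tested genes. Its values are given as a description of a gene singled out after they were seen. Kif1a (ENSMUSG00000014602, chr1:93015464-93101951, minus strand, up to 49 exons) carries synaptic vesicle precursors along axons. It had 19.7, 20.2 and 13.3 CPM in WT and 37.7, 32.4 and 24.3 CPM in KO libraries. Every KO library was above every WT library, with a log2 fold change of 0.83 (SE 0.23) and an edgeR adjusted p of 0.471. The 8 neuronal and glial markers summed to 120 to 191 CPM in WT and 201 to 236 CPM in KO libraries, with 5 of the 6 tested higher (median log2 fold change 0.36), 2 of them without overlap (5.68% of all genes), and Syt1, a synaptic vesicle protein, at 0 counts in every library. Their part in the level of Kif1a was not tested.

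Among the other kinesins, 3 of the 8 tested were lower and 5 higher, with a median log2 fold change of 0.072. Between 2 and 5 of them were lower, and the median was -0.21 to 0.12, with each library left out in turn. Kif2a, a depolymerase of interphase and spindle pole microtubules, had 46.1, 56.9 and 60.0 CPM in WT and 56.3, 55.6 and 69.2 CPM in KO libraries (0.15, SE 0.18). Kif26a ran from 4.14 CPM in WT replicate 1 through 17.0 to 31.1 CPM in WT replicate 2, and the KO libraries, at 14.2, 16.9 and 26.4 CPM, fell within that range. Kif7, a ciliary regulator of Hedgehog signalling, had 5.11, 8.01 and 6.97 CPM in WT and 7.16, 7.34 and 6.35 CPM in KO libraries (0.052, SE 0.24). Kif21a had 10.1, 16.7 and 10.3 CPM in WT and 8.14, 10.2 and 13.5 CPM in KO libraries (-0.22, SE 0.28), and Kif21b had 3.81, 7.95 and 3.01 CPM in WT and 5.45, 6.99 and 6.75 CPM in KO libraries (0.37, SE 0.36). The groups of these 5 genes overlapped. With single libraries left out, Kif21b ranged from 0.11 without WT replicate 3 to 0.91 without WT replicate 2. Kif21a turned to 0.060 without WT replicate 2 and Kif7 to -0.10 without WT replicate 1. Kif26a, at 0.14 with all libraries, ranged from -0.32 without WT replicate 1 to 0.86 without WT replicate 2. Kif9 and Kif19a were at 0.59 to 2.31 CPM, with log2 fold changes of -0.063 and 0.093, and Kif1bp had 30.5 to 35.7 CPM in WT and 30.2 to 34.9 CPM in KO libraries (-0.016).

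Of the members outside the mitotic group, 1 of the 8 other kinesins, Kif24, and 0 of the 13 transport kinesins were lower without overlap, a share below the 6.83% of all tested genes, so the values of Kif24 are given as a description of a gene singled out after they were seen. It encodes a centriolar kinesin that restrains the formation of cilia and lies on the minus strand at chr4:41390745-41464887. Its counts were 43, 136 and 58 in WT and 29, 26 and 36 in KO libraries, and its levels were 2.78, 7.21 and 3.43 CPM against 1.77, 1.54 and 2.04 CPM. The groups did not overlap, with a log2 fold change of -1.33 (SE 0.40) and an edgeR adjusted p of 0.495. WT replicate 2 was far above the other libraries, and without it the log2 fold change was -0.80. WT replicates 1 and 3 also lay above every KO library.

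Summed per length, the mitotic kinesins gave 60.1, 58.9 and 50.7 FPKM in WT and 31.0, 40.4 and 29.6 FPKM in KO libraries. The transport kinesins gave 93.3, 113 and 94.5 FPKM in WT and 98.6, 102 and 112 FPKM in KO libraries. The mitotic sum was thus 0.596 of its WT mean in KO libraries, without overlap, and the transport sum 1.04 of its WT mean, with overlap. The mitotic share of all kinesin FPKM was 36.4%, 30.8% and 31.4% in WT and 21.4%, 25.6% and 18.4% in KO libraries, and the ratio of mitotic to transport FPKM was 0.644, 0.523 and 0.537 against 0.314, 0.398 and 0.264. This ratio is taken within a library and so does not depend on the scaling between libraries.

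**Figure D4:**
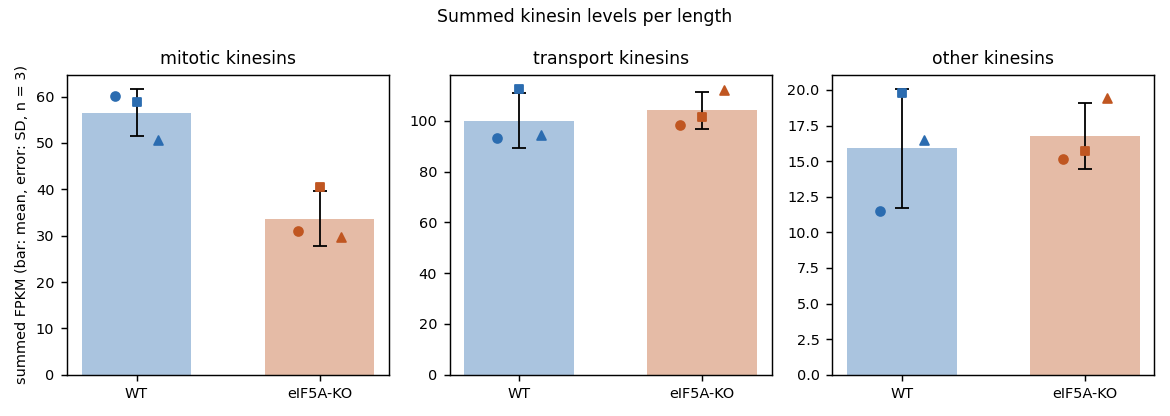
Summed FPKM of the mitotic, transport and other kinesins in each library (points, a marker shape for each replicate), with the mean (bar) and SD (error bar) of the 3 libraries of a genotype. The mitotic sum was 56.6 ± 5.11 FPKM in WT and 33.7 ± 5.89 FPKM in KO libraries, and the transport sum was 100.1 ± 10.8 and 104.1 ± 7.17 FPKM.

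The 14 proliferation markers moved with the mitotic kinesins. They were all lower, against 51.7% of all tested genes, with a median log2 fold change of -0.74, and 12 did not overlap, against 6.83% of all tested genes. None passed an adjusted p of 0.05 in edgeR (smallest 0.242), and 12 reached an unadjusted p under 0.05 in the lower direction, against 4.02% of all genes. They summed to 1677 to 2170 CPM in WT and 1048 to 1356 CPM in KO libraries. The most abundant of them were Pcna (-0.50), Rrm2 (-0.37), Top2a (-0.91), Mcm2 (-0.45) and Mcm5 (-0.57). For 100 CPM of these markers, the mitotic kinesins had 14.4, 18.1 and 16.1 CPM in WT and 13.4, 15.4 and 14.9 CPM in KO libraries, and the groups overlapped. Their part in the difference of the mitotic kinesins was not tested.

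Partners of the motors were read in the same fit. All 15 partners of mitotic kinesins were lower, with a median log2 fold change of -0.54, and 11 did not overlap, against 51.7% of all genes lower and 6.83% lower without overlap. Among the most abundant, the spindle assembly factor Tpx2 had -0.52, the centralspindlin subunit Racgap1 -0.55, the Aurora B complex members Incenp and Birc5 -0.51 and -0.48, and Numa1, which also has a role in interphase nuclei, -0.12. Of 14 partners of transport kinesins, 4 were lower and 10 higher, with a median of 0.073, and 2 were higher without overlap, against 5.68% of all genes. Their most abundant members were the kinesin light chain Klc1 (-0.025), the lysosomal adaptors Arl8b (0.15) and Arl8a (0.32, without overlap), and the mitochondrial adaptors Trak1 (0.11) and Rhot1 (-0.16). Dynein and dynactin, which carry cargo in the opposite direction to most kinesins, had 8 of 21 tested genes lower, 1 of them without overlap, and a median of 0.088. No gene of these lists passed an adjusted p of 0.05 in edgeR, and an unadjusted p under 0.05 was reached by 9 mitotic partners in the lower direction (4.02% of all genes), 1 transport partner in the higher direction (2.74% of all genes) and 0 dynein or dynactin genes.

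The kinesins with other names were read as well. Cenpe, the kinetochore motor, and Kifc1, a spindle motor that moves towards the minus end, were lower without overlap (log2 fold change -0.61, SE 0.19, and -0.76, SE 0.22). Kifc5b was lower too (-0.64, SE 0.20), but its transcript is 95.9% identical to that of Kifc1 over 2375 bases, so that the reads of these genes may be shared. Kifc3 and Stard9 overlapped between genotypes, with 0.18 and -0.24.

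Across the 6 libraries, the log2 CPM of the other 10 tested mitotic kinesins correlated with that of Kif11 with Pearson's r of 0.80 to 0.95 (median 0.87), with Kif15 the closest. The transport kinesins had r of -0.79 (Kif1a) to 0.38 (median 0.064), and Kif24 had 0.78. The genes of the whole table nearest to Kif11 were Top2a (0.997), Dtl (0.995), Cbx5 (0.991), Gm10282 (0.990) and Enox1 (0.990). The points share their libraries and the genotype difference, and the values are a description. Within WT the coefficient of variation had a median of 10.2% over the mitotic and 21.5% over the transport kinesins, and within KO libraries 22.5% and 14.1%, so that which group varied more was not the same in both genotypes.

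The promoter sequences of the members do not depend on the counts and were read to see what the groups share. RefSeq windows of GRCm38.p6, from 250 bases before to 50 after the transcription start, matched 11 of the mitotic, 10 of the transport and 10 of the other kinesins. Kif1a, Kif1b, Kif2a and Kif9 have 2 windows each, of which the one nearest the gene start in the files was read. The motifs searched on both strands were the CHR element, known from promoters of genes of the late cell cycle and read as TTTGAA or, in its variant form, as TTCGAA, the NF-Y box (CCAAT), and the E2F motif (TTTGGCGC, TTTCGCGC, TTTCCCGC or TTTGCCGC). The letters of none of them hold another. A CHR element was in 9 of 11 mitotic windows (81.8%), 0 of 10 transport windows and 3 of 10 other windows, those of Kif24, Kif26b and Kif27, against 19.2% of all 32851 promoter windows. An NF-Y box was in 7 of 11, 3 of 10 and 4 of 10, against 37.4% of all. Both together were in 6 of 11 mitotic, 0 of 10 transport and 3 of 10 other windows, against 7.52% of all. The E2F motif was in the windows of Kif15 and Kif18a alone, against 2.26% of all. The CHR matches counted for Kif2c, Kif14 and Kif27 lie in windows 3867, 1505 and 4175 bases from the gene start in the files. The window of Kif2a, placed among the other kinesins, held no CHR element.

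The position was shared as well. Within 30 bases of the start, a distance chosen after the matches were seen, a CHR element was in 7 of 11 mitotic windows (63.6%), 0 of 10 transport windows and 2 of 10 other windows, against 3.18% of all. The mitotic windows without one there were those of Kif2b, Kif18a, Kif2c and Kif14, and those of Kif2c and Kif14 start 3867 and 1505 bases from the gene start that the files give. The same holds for the window of Kif17 among the transport kinesins (11816 bases) and that of Kif27 among the other kinesins (4175 bases). The stretches below, on the strand of the gene and from 60 bases before the start to the 29th base after it, are shown because they carry this shared element. Capitals mark a CHR element, an NF-Y box or an E2F motif, written as its reverse complement where it lies on the opposite strand. Kif11 (chr19:37376322-37376411) and Kif22 (chr7:127042391-127042480) have an NF-Y box followed by a CHR element upstream of the start, Kif15 (chr9:122951021-122951110) has an E2F motif in its place, and Kif23 (chr9:61946770-61946859), Kif4 (chrX:100626005-100626094) and Kif18b (chr11:102925095-102925184) have the CHR element just after the start. Kif20b (chr19:34922298-34922387) has the element repeated back to back. Kif24 (chr4:41464819-41464908) is a non-mitotic member that was lower without overlap, and Kif1c (chr11:70700488-70700577) and Kif1a (chr1:93101845-93101934) are transport kinesins shown as examples without any of these letters here, while Kif3a, not shown, has an NF-Y box in this stretch.
Kif11: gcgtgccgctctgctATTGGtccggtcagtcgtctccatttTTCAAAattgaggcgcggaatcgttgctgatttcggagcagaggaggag
Kif22: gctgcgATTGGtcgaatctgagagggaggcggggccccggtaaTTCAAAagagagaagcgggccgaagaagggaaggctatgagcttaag
Kif15: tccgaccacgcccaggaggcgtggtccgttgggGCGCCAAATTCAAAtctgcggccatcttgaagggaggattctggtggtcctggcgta
Kif23: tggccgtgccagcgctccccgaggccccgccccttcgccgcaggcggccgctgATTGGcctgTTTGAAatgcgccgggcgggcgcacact
Kif4: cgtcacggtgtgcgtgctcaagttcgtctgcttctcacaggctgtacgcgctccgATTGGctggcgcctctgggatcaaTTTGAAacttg
Kif18b: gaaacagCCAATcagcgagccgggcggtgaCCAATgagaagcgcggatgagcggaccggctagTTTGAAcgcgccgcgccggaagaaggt
Kif20b: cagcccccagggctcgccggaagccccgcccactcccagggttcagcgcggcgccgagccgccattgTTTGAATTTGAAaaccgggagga
Kif24: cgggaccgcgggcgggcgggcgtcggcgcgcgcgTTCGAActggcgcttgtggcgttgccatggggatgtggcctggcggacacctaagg
Kif1c: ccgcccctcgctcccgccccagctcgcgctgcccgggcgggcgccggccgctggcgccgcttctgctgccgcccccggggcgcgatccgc
Kif1a: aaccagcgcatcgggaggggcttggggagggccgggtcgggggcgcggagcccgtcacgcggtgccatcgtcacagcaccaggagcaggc

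A match is a description of these letters and not of a bound site. Mitotic members with the element near the start had log2 fold changes of -1.19 (Kif11), -1.0 (Kif15), -0.93 (Kif18b), -0.77 (Kif22), -0.66 (Kif23), -0.59 (Kif20b) and -0.50 (Kif4). Of the other kinesins with the element there, Kif24 had -1.33 and Kif26b was not tested. Tested mitotic members whose windows lacked the element near the start had -0.88 (Kif18a), -0.62 (Kif14) and -0.59 (Kif2c). These lay within the range of the mitotic members with it. All 10 transport windows lacked it there, and their genes had -0.30 (Kif17) to 0.83 (Kif1a). The tested other kinesins whose windows lacked it there had -0.22 (Kif21a) to 0.15 (Kif2a).

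**Figure D5:**
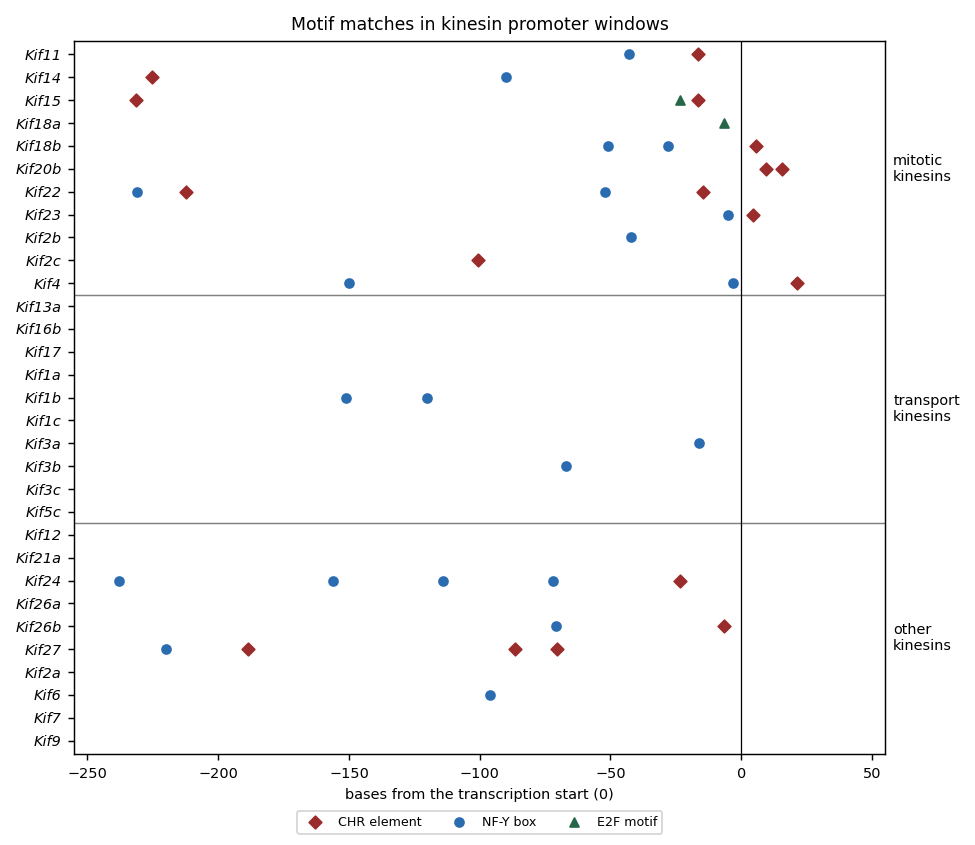
Positions of CHR elements (diamonds), NF-Y boxes (circles) and E2F motifs (triangles) in the RefSeq promoter windows of 31 kinesin genes, in bases from the transcription start (vertical line). CHR elements cluster near the start in the mitotic group, where 7 of 11 windows have one within 30 bases, and none lies in the 10 transport windows.

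Some counts may be shared with neighbouring genes, because the counting rules for strand and repeated sequence are not given in the sources used here. Exons of Kif20a coincide with those of Cdc23 on the opposite strand over 979 bases, and Cdc23 had a log2 fold change of -0.40 (SE 0.20). Kif4 coincides with Pdzd11 over 684 bases (0.11, SE 0.21), Kif2a with Dimt1 over 1229 bases (-0.29, SE 0.27) and Kif3c with 1110002L01Rik over 2617 bases (-0.58, SE 0.36). Reads of such pairs cannot be told apart without strand. Kif11 shares 90.4% identity over 1691 bases with the pseudogene Gm15697, which had 0 to 5 counts per library against at least 274 for Kif11, and Kif18b lies within Gm26668 on the opposite strand, which had 1 to 7 counts per library. Kif11 also overlaps the pseudogenes AC137605.4 (946 bases, same strand) and AC137605.6 (406 bases, opposite strand). Kif15 overlaps Gm47148, and Kif14 overlaps Gm29486 and Gm29485, on the same strand. None of these was among the copies found by sequence. Kif1a, Kif2c, Kif23 and Kif24 overlap no annotated gene.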

How the data were processed

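Per the labels and methods, the authors mapped the reads to mm10 with HISAT (version not given) and deposited raw read counts per gene. The authors also deposited FPKM per gene, used here for levels between genes and as an alternative. The step that counted reads is named as DEGSeq2 in the methods. Counts were analysed with edgeR 4.0.16 in R 4.3.3 (filterByExpr, TMM factors, quasi-likelihood F test, 3 WT against 3 KO libraries, no covariate). The fit covered 14679 genes with Benjamini-Hochberg adjustment at 0.05, after a check on simulated data. A prior count of 2 was used for the log2 CPM of the correlations and not in the test. Alternatives used DESeq2 1.42.0 and limma 3.58.1. Members, lists of genes and motifs were chosen with earlier results of these data known. Values per library are given for tested mitotic kinesins and for other members with a mean of at least 5 CPM, and up to 5 genes with the highest CPM are named per list. Of 54532 gene identifiers, 54409 were in GENCODE M21. Copies were sought with blastn 2.17.0 (at least 200 bases and 90% identity). Intervals are at 95%. Limits from 0 counts are 3 counts and cover counting error only. Protein sequences were not used here.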

Additional observations from a re-analysis of the deposited data

How the results depend on the processing

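The 11 mitotic kinesins were lower in all 15 alternatives. Their median log2 fold change was -0.85 to -0.51 over all 15, and -0.85 to -0.55 with each library left out in turn, with the largest size without eIF5A-KO replicate 2. With limma on log2(FPKM + 1) the median was -0.51, and Kif15, Kif18a and Kif14 were at -0.58, -0.28 and -0.24, since the pseudocount lowers the fold changes of genes with low FPKM. The fold change of Kif11 was -1.33 to -1.02 and that of Kif1a 0.59 to 0.98 over all 15, and the adjusted p of Kif11 was 2.31e-05 (DESeq2) to 0.612. The number of mitotic kinesins with an adjusted p under 0.05 was 3 without an expression filter (Kif11, Kif15 and Kif18b), 2 with DESeq2 (Kif11 and Kif15) and 0 to 1 with each library left out, where Kif11 passed without WT replicate 1. Without a filter, Kif1a and Kif24 passed too. The fold change of Kif24 was -1.57 to -0.33 over all 15, with -0.80 without WT replicate 2 and -0.33 with limma on log2(FPKM + 1). The order of sizes within the mitotic group was not the same in all alternatives. The median of the transport kinesins was -0.088 to 0.11 with each library left out and changed sign in 4 of these fits (0.00047 without WT replicate 1, 0.11 without WT replicate 2, 0.039 without eIF5A-KO replicate 1 and 0.060 without eIF5A-KO replicate 2). That of the other kinesins was -0.21 to 0.12 and changed sign in 2 (-0.21 without WT replicate 1 and -0.0018 without eIF5A-KO replicate 1). Over all genes, 1 was called higher and 2 lower in edgeR. These counts were 0 and 0 with DESeq2 size factors (407 and 585 at an unadjusted p under 0.05), library size alone (305 and 661), at least 10 counts in every library (373 and 534), limma-voom (402 and 559), and with limma run instead on log2(FPKM + 1) (437 and 543) or with a pseudocount of 0.1 (431 and 549). They were 65 and 184 without a filter, 19 and 73 with DESeq2, and 0 to 8 and 0 to 47 with each library left out, the highest counts being without WT replicate 1. With the replicate number as a block they were 7 and 17, with no kinesin called. Libraries of the same number had correlations of 0.084, -0.16 and 0.11 between their deviations, so that the numbers were not taken as pairs. The cause of these differences was not tested. Counts on members read under each alternative were added after the data were seen. The 3 libraries per genotype and, for Kif24 and Kif18a, counts under 150 per library limit the precision.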
